A study of Mus musculus with 4 samples.

Results

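Adventitial-type fibroblasts were picked out of single-cell RNA profiles of mouse retina and choroid by their own transcripts. A column of the count matrix, that is 1 droplet barcode taken as a cell, was counted as one when it held at least 1 unique molecular identifier (UMI, a counted RNA molecule) of at least 3 of the 6 fibroblast genes Col1a1, Col1a2, Dcn, Lum, Pdgfra and Col3a1. It also had to hold at least 3 of the 5 genes Dpt, Pi16, Clec3b, Mfap5 and Tnxb, here called set A, and more genes of set A than of each of 2 other sets of 5. Those sets mark a Pgf type of fibroblast (Pappa2, Pgf, Angpt1, Edn3, Inmt) and a Myoc type (Myoc, Chil1, Ecrg4, Itgbl1, Chad). The rule was met by 2904 of 36701 columns, and by 2904 of the 13033 columns with 3 or more of the 6 fibroblast genes, here called fibroblast columns. Members were thus chosen by their detected RNA. Without lesions the young library held 456 of them and the aged one 136, and after choroidal neovascularisation (CNV) these were 1762 and 550.

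The 4 groups were wild-type (WT) mice with 1 library each. The young were aged 6 to 8 weeks and the aged over 18 months. The CNV groups were taken 3 days after laser burns, which break Bruch's membrane so that choroidal vessels grow towards the retina (CNV), and the control groups had no lesions. Choroid with sclera and retina were dissociated apart with papain, rods were depleted from the retinal part through CD73, and both parts were pooled before loading, so the place of a cell in the eye was not recorded. The labels give neither strain, sex nor the number of animals in a library.

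Adventitial fibroblasts lie in the outer sheath of vessels and in fascia. They carry Pi16, a secreted protein of the CAP family, and Dpt (dermatopontin), a matrix protein that binds decorin. Fibroblasts with Pi16, Dpp4 and Cd34 are known from several mouse tissues as cells with progenitor properties, from which other fibroblasts can arise.

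With 1 library per group no comparison between conditions has a replicate check, and no test was run. Intervals are 95% and cover counting error only. A gene is called higher or lower when its level differed by 2-fold or more, among genes with at least 50 UMIs over both libraries. Levels are counts per 1e6 UMIs of the members (CPM). The libraries held 50848238 to 111908519 UMIs and their members 1299715 to 30259279, at a median of 8638 to 13635 UMIs per member. Library pairs shared 14 to 29 barcodes, none of them a member in both. Fibroblast columns were 65.3% of young CNV against 19.6% to 24.3% of the other libraries. Col3a1 was found in 17.1%, 49.7%, 4.41% and 13.3% of endothelial columns. Wherever 4 values are given, the first pair are the young libraries, control before CNV, and the second pair the aged ones.

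Members also carried transcripts used as markers of other cells, and which ones differed between libraries. A member with 3 or more markers of 1 of 8 other cell types is called a mixed column here. Those types were endothelial cells, macrophages, neutrophils, T cells, pericytes with smooth muscle, melanocytes, Schwann cells and ocular surface epithelium. The young control held 54 (11.8%) and young CNV 536 (30.4%), and the aged libraries 1 and 54 (9.82%) in the same order. In young CNV they held 48.1% of the members' UMIs, at a median depth of 20563.5 UMIs against 11624.5 in the other members. Macrophage markers were met by 367 of the young CNV members and ocular surface epithelium markers by 133. Scrublet, a doublet caller, scored 46 of the 536 at 0.2 or more. Leaving mixed columns out left 402, 1226, 135 and 496 members. Rod transcripts (6 markers, none at 0) summed to 1050.2, 254, 355 and 239 CPM in the members, and those of retinal pigment epithelium (RPE, 6 markers, none at 0) to 692, 515, 1688 and 259. Young control was thus highest for rods and aged control for RPE. Rod, RPE and Mueller glia markers were not among the 8 lists, so leaving out mixed columns does not remove members that hold them. At least 3 rod markers were found in 83.6%, 17.5%, 8.09% and 4.36% of members, and at least 3 RPE markers in 5.04%, 3.29%, 11.8% and 1.64%. At least 3 of the Mueller glia markers Glul, Apoe, Slc1a3, Aqp4 and Clu were found in 27.9%, 40.1%, 25.7% and 31.1%. Whether the members make some of these themselves was not tested. Counts of mixed columns thus depend on the lists used, and the part of rod, RPE and glial transcripts in the results was not tested.

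The set A genes split the fibroblast columns. The plot of detected markers shows most columns with 0 to 2 of them, few with 4, and a second rise at 5, where 324, 1199, 73 and 368 members lay. Members just inside the rule, with 3 genes of set A, held a median of 6 to 9 UMIs of the 5 genes. Fibroblast columns just outside, with 2 of set A and fewer than 2 of each other set, held 2 to 4.5, and members with all 5 held 52.5 to 118. Those just inside thus lie nearer to those outside than to members with all 5.

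**Figure D1:**
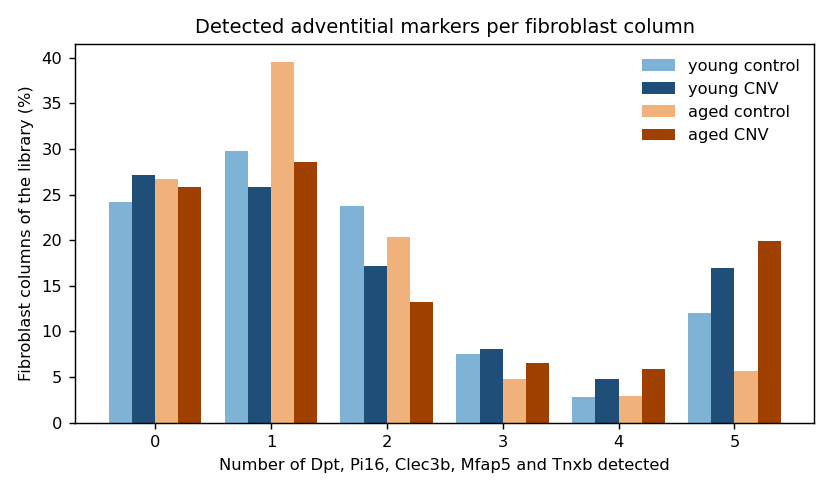
Share of each library's fibroblast columns (vertical axis, %) by the number of the 5 set A genes detected (horizontal axis), 1 bar per library. The share rises again at 5 genes in each library, and is highest in aged CNV and lowest in aged control (5.67%).

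Since the rule used these genes, their levels are a description. Pi16 stood at 2635, 1919.9, 2072 and 1807 CPM and was found in 90.4%, 91.5%, 91.9% and 89.6% of members. Dpt stood at 766, 742, 519 and 488 CPM, found in 84.0%, 87.5%, 76.5% and 83.8%. Mfap5, a microfibril protein, stood at 1566, 1686, 1109 and 892 CPM, and both aged libraries were below both young ones for Dpt and Mfap5. Endothelial columns, which should lack these genes, held Pi16 in 7.65%, 15.9%, 5.88% and 5.05% and Dpt in 0%, 4.62%, 0% and 1.41%, at median depths of 8046, 5403.5, 6426.5 and 6447 UMIs. Such background was most frequent in young CNV and far below the members' shares in every library.

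The name was checked with genes outside the rule. Of 24 Pi16 and Dpp4 progenitor-type genes, 20 were at least 2-fold above both other fibroblast types in every library, a condition met by 370 of 16809 measured genes. Of 12 measured genes of Col15a1 parenchymal fibroblasts, another kind, 3 met it as well, namely Hmcn2, Lpl and Npr1. Among 7 measured meningeal and barrier fibroblast markers 1 met it, Dpp4, which is on both lists. Dpp4, a cell surface peptidase, stood at 159, 96.6, 282 and 244 CPM in the members and at most at 7.21 CPM in the other types. Cd55, a brake on complement, stood at 169, 130.3, 259 and 149 CPM against at most 5.70. Has1, a hyaluronan synthase, stood at 208, 133, 389 and 377 CPM against at most 19.4. Ackr3, a scavenger receptor for Cxcl12, Sema3c, a guidance ligand, and Cd34 were also among the 20 progenitor-type genes. Igfbp5, Igfbp6, Ly6a and Opcml were not, and Igfbp5 was highest in the Pgf type in each library.

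Other genes set the members apart as well. By the smallest ratio over the 4 libraries the first was Adgrd1, an adhesion receptor, at 236, 148, 344 and 347 CPM in the members and at most 1.93 CPM in the other types. Col6a6, a collagen VI chain, followed at 89.0, 92.5, 74.6 and 95.9 CPM against at most 2.21. Slc6a2, the noradrenaline transporter, stood at 35.3, 23.3, 59.2 and 28.7 CPM against at most 0.926. The B cell chemokine Cxcl13, the neuropeptide gene Nts, the potassium channel Kcnc2, the prokineticin receptor Prokr1, Wnt10b and the transcription factor Ebf2 were also among the first 20.

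Lowest against the other types were Sost, an inhibitor of Wnt signalling, and Smoc1, a secreted calcium-binding matrix protein, at 32.1, 31.7, 43.9 and 33.4 CPM in the members. Of the tendon and cartilage fibroblast markers 0 of 6 were 2-fold above both other types in every library, with a median log2 ratio of -3.39 to the higher type. Tnmd (tenomodulin) stood at 32.6, 24.9, 10.8 and 4.78 CPM in the members and at 529, 559.6, 246 and 241 CPM in the Myoc type. The Pgf type was below the members in each library, at 6.62, 18.9, 3.07 and 2.81 CPM. Cilp, a cartilage matrix protein of the same list, went the other way, at 159.7, 117, 120.0 and 63.2 CPM in the members and at most 55.2 in the other types, though 1 column held 57.7% of its UMIs in aged control. These values come from the columns that the rule sorted, so they describe the members and test nothing.

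Adventitial-type fibroblasts took a larger share of columns after laser at both ages, and a smaller share in aged than in young eyes. In young mice they were 3.99% (3.64 to 4.37) of control columns and 16.2% (15.5 to 16.9) of CNV columns, with exact binomial intervals. In aged mice they were 2.04% (1.71 to 2.41) and 7.11% (6.55 to 7.71). The odds of a column being a member were 4.66 times as high after laser in young mice (4.18 to 5.19) and 3.68 times in aged mice (3.04 to 4.49). The odds in aged against young mice were 0.5003 (0.409 to 0.609) without lesions and 0.396 (0.357 to 0.438) after laser. A share says nothing of the number of cells in the eye, since dissociation and rod depletion set it too.

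With mixed columns not counted as members, but kept among all columns, the shares were 3.52%, 11.3%, 2.02% and 6.42%. The laser odds ratios were then 3.49 in young and 3.32 in aged mice. Thinned to 2000 UMIs per column, which left out 4836 columns of young control and 1958, 768 and 795 of the others, the shares were 5.61%, 14.3%, 1.62% and 5.54%. Rod columns were 36.0%, 16.3%, 7.29% and 4.14% of the libraries, and without them the young laser odds ratio was 3.61. The direction of all 4 comparisons was the same in each of these settings.

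Among fibroblast columns alone the order changed. Members were 16.4%, 24.8%, 10.4% and 29.7% of them, and the odds in aged against young mice after laser were 1.28 (1.14 to 1.43). Thinned to 2000 UMIs that ratio was 0.720 (0.629 to 0.824), so no order of the CNV libraries is read from it. The Pgf type was 7.31%, 7.32%, 7.52% and 4.85% of all columns, with a laser odds ratio of 1.003 (0.905 to 1.11) at the young age and of 0.627 (0.545 to 0.721) at the aged one. The Myoc type gave 1.30 (1.15 to 1.46) and 1.002 (0.870 to 1.16). Each of these 4 ratios lay below the members' interval over all columns at that age.

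**Figure D2:**
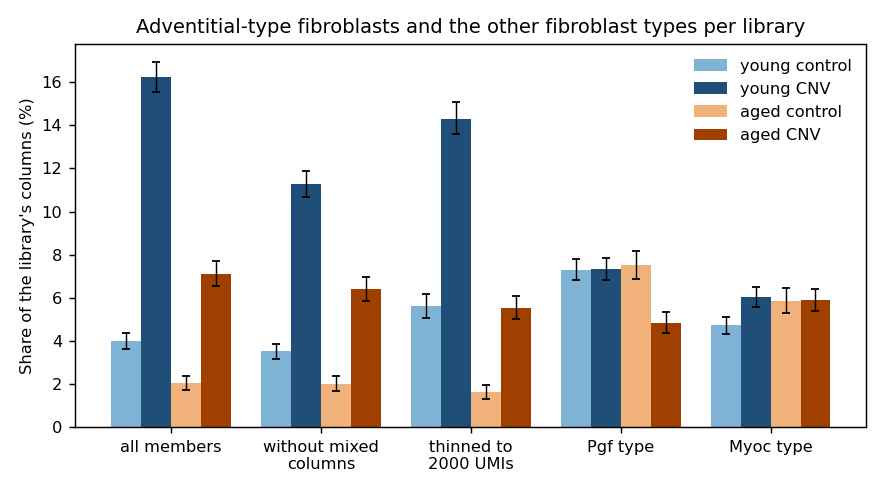
Share of all columns of a library (vertical axis, %, bars from 0, error bars exact binomial 95% intervals) for all members, members without mixed columns, members after thinning to 2000 UMIs, and the Pgf and Myoc types. Within each of the first 3 sets the CNV bar lies above the control bar of the same age, as in 16.2% against 3.99% for all young members.

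After laser, young members held more transcripts of Cthrc1, Lrrc15, Adam12, Acta2 and Tagln, genes of activated fibroblasts, and fewer of the complement gene C7. Over all members 884 of 14348 genes were higher (6.16%) and 415 lower (2.89%), 9.05% in all. Without mixed columns these were 191 of 12408 (1.54%) and 328 (2.64%), 4.18% in all. The 156 genes that were higher both ways made up 17.6% of the first list and 81.7% of the second. The rest of the first list was not called higher without mixed columns, where fewer genes had enough UMIs to be measured. How many of the rest were unmeasured, and how many were measured but no longer higher, was not counted.

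Of the activated fibroblast genes 9 of 15 were higher and 0 of 15 lower, with a median log2 ratio of 1.26 against -0.05 over all genes. Without mixed columns 6 of 14 were higher, with a median of 0.66 against -0.07. The other fibroblast types had 5 of 11 (Pgf type) and 5 of 13 (Myoc type) higher, with medians of 0.40 and 0.28. Over all genes of those types 1.33% and 1.40% were higher. Activated fibroblast genes were thus higher in all 3 types, and the differences between types were not tested. Cthrc1, a secreted protein of collagen-producing fibroblasts, stood at 56.3, 483, 14.6 and 29.9 CPM. Young CNV was the highest of the libraries and both aged ones lay below both young ones. Its young laser ratio was 8.59 (7.70 to 9.60), and 5.86 (5.23 to 6.60) without mixed columns, and the share of members with a UMI went from 25.7% to 49.1%. Lrrc15, a membrane protein of myofibroblasts, had 17, 1479, 0 and 14 UMIs. Its ratio was 8.27 (5.11 to 14.3) without mixed columns. Adam12, a metalloprotease, stood at 12.5, 90.4, 3.85 and 22.6 CPM, with a ratio of 4.33 (3.33 to 5.72) without mixed columns.

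The contractile genes rested on fewer columns. Acta2, smooth muscle actin, stood at 56.9, 210.3, 10.8 and 44.8 CPM, and without mixed columns at 15.1, 72.8, 10.99 and 7.75, where the young laser ratio was 4.84 (3.81 to 6.22) and the aged one 0.705 (0.371 to 1.42). Without mixed columns young CNV alone was high. Tagln (transgelin) gave 5.12 (3.86 to 6.93) in young mice. Columns in the top 1 in 20 by UMIs of each gene held 91.8% of the Acta2 UMIs and 95.6% of the Tagln UMIs of young CNV. The 6 pericyte and smooth muscle markers summed to 155 and 242 CPM in young control and young CNV, and without mixed columns to 67.1 and 103, with 1 at 0 in young control. Their part in these ratios was not tested.

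Single matrix genes differed more than the collagens. Tnc (tenascin C) had 18, 5478, 43 and 63 UMIs, that is 3.04, 181, 33.1 and 11.1 CPM. Its young laser ratio was 59.5 (37.6 to 101), and 20.01 (11.4 to 38.9) without mixed columns. A UMI of Tnc was found in 2.41% and 13.3% of members of the young libraries. Lox, which crosslinks collagen and elastin, stood at 78.7, 209, 76.2 and 127 CPM, and was 2.19 (1.97 to 2.43) times as high without mixed columns. Postn (periostin) stood at 902, 1757, 319 and 578 CPM and did not reach 2-fold in young mice. Of the fibrillar and associated collagens 0 of 15 were higher and 0 of 15 lower, with a median log2 ratio of 0.23.

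Complement and chemokine genes differed in both directions. C4b, a complement component, stood at 65.9, 178, 163 and 478 CPM, 2.70 (2.43 to 3.00) times as high after laser in young mice. C7, a component of the membrane attack complex, stood at 134, 37.0, 249 and 175 CPM, 3.63 (3.31 to 3.98) times lower. Ccl8, a monocyte chemokine, stood at 8.79, 62.0, 13.1 and 71.5 CPM, higher in both CNV libraries than in both controls. Ccl2, another, was 2.62 (2.15 to 3.21) times as high without mixed columns, and Cxcl5, a neutrophil chemokine, 2.78 (2.31 to 3.34) times lower. Of the chemokines and cytokines 3 of 21 were higher and 1 of 21 lower, so the list had no common direction. H19, an imprinted noncoding RNA, stood at 173, 433, 48.5 and 78.0 CPM, 2.51 (2.35 to 2.68) times as high after laser in young mice.

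Some of the larger ratios in young mice went with mixed columns. Gpnmb, a glycoprotein of phagocytes, gave a laser ratio of 11.9, and 1.999 (1.54 to 2.64) without mixed columns. Spp1 (osteopontin) gave 30.3 and 8.37 (6.71 to 10.6). The 6 macrophage markers, none at 0, summed to 59.98 and 901 CPM in young control and young CNV, and to 28.7 and 113 without mixed columns. Of the cell cycle genes 10 of 17 were higher in all members and 2 of 17 without mixed columns.

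After laser, aged members held more interferon-stimulated, chemokine and acute-phase transcripts. Over all members 675 of 10938 genes were higher (6.17%) and 221 lower (2.02%), 8.19% in all. Without mixed columns 460 of 10276 were higher (4.48%) and 238 lower (2.32%), 6.79% in all. The 414 genes that were higher both ways made up 61.3% of the first list and 90.0% of the second. This comparison rested on 136 control members. The macrophage markers summed to 37.7 and 238 CPM in aged control and aged CNV, and without mixed columns to 38.5 and 69.8, none at 0, and their part in the results was not tested.

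Of the interferon-stimulated genes 12 of 22 were higher and 0 of 22 lower, with a median log2 ratio of 1.18 against -0.08 over all genes, and without mixed columns 13 of 22 with a median of 1.15 against -0.11. Ifit1, an antiviral RNA-binding protein, stood at 94.95, 118, 36.2 and 180.1 CPM, 4.98 (3.72 to 6.82) times as high after laser in aged mice. Aged control was the lowest library and aged CNV the highest. Ifit3, of the same family, stood at 36.5, 80.3, 53.1 and 191 CPM. Iigp1, an immunity-related GTPase, stood at 359, 192, 127 and 405 CPM, so young control and aged CNV lay close together and aged control was lowest. Rsad2 (viperin) stood at 4.39, 22.7, 12.3 and 47.9 CPM and was higher after laser at both ages.

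Promoters of Ifit1, Ifit3, Rsad2 and Isg15, and of the chemokine gene Cxcl10 from outside this list, are shown. Many interferon-stimulated genes are known to carry a response element there. The motif GAAANNGAAA, which is TTTCNNTTTC on the other strand, was searched on both strands from 250 bases before to 50 after each gene's start (RefSeq, GRCm38.p6). Of the 13 genes of the list that were higher without mixed columns, 10 had a promoter in the table and 7 of those held the motif. Oasl2, Irf7 and Irf1 did not hold it and are not shown. Of the other 9 genes of the list 6 had one and 5 held it. Of all 27025 genes with a promoter searched, 3.99% held it in at least 1. The promoters of 1 chromosome were left out of all these counts. The windows are Ifit1 at chr19:34640639-34640938 (plus strand), Ifit3 at chr19:34583279-34583578 (plus strand), Rsad2 at chr12:26456403-26456702 (minus strand), Isg15 at chr4:156200769-156201068 (minus strand) and Cxcl10 at chr5:92348840-92349139 (minus strand). Capitals mark the matches, and overlapping matches form 1 run.
Ifit1: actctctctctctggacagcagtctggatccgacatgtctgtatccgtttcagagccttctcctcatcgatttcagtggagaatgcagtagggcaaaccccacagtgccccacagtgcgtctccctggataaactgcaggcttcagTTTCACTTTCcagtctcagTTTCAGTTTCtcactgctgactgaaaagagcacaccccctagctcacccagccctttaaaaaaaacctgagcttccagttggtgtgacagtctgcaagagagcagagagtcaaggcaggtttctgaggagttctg
Ifit3: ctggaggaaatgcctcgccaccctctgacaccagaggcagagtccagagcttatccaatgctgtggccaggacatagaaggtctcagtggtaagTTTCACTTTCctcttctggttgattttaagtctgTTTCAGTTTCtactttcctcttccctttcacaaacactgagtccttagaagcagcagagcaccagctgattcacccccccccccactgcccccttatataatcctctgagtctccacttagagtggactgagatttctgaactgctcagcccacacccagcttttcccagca
Rsad2: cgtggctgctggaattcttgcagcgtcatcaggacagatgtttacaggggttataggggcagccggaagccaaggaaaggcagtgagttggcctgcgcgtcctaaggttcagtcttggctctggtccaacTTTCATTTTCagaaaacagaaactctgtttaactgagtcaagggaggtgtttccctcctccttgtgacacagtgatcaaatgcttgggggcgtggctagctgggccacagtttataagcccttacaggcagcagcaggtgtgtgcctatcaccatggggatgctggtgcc
Isg15: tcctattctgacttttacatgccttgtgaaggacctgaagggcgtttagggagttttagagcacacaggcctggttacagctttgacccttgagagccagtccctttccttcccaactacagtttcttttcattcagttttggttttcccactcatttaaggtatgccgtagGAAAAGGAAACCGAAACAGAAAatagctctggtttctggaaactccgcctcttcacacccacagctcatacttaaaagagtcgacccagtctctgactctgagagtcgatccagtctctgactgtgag
Cxcl10: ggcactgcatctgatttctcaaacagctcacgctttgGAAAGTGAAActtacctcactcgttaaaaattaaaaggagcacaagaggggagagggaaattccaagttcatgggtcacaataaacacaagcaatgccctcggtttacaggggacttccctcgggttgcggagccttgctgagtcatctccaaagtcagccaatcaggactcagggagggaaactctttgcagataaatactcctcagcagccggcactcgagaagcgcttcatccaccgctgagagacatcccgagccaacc

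The matches began 104 and 85 bases before the start in Ifit1, 156 and 122 in Ifit3, 120 in Rsad2, 78, 72 and 66 in Isg15, and 213 in Cxcl10. A match describes the letters and not binding, and genes of the list that were not higher held the motif as well.

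Of the chemokines and cytokines 9 of 19 were higher in aged mice after laser and 0 of 19 lower, with a median log2 ratio of 0.84, and 8 of 19 without mixed columns. Cxcl10, which draws T cells through Cxcr3, had 717, 2024, 3 and 370 UMIs, that is 121, 66.9, 2.31 and 65.5 CPM. The aged laser ratio was 28.4 (9.63 to 138), and aged control alone was low. Cxcl9, a related ligand, had the same order at 97.0, 87.6, 14.6 and 67.8 CPM. Cxcl13 stood at 14.9, 23.3, 62.3 and 512 CPM, 8.21 (6.59 to 10.4) times as high, with aged CNV far above the rest. A UMI of Cxcl13 was found in 5.15% of aged control and 23.8% of aged CNV members. Ccl19, a ligand of Ccr7, stood at 87.9, 77.4, 105 and 216 CPM, and Il6 at 116, 105, 90.8 and 218, and both were highest in aged CNV. Cxcl12, the ligand of Cxcr4, stood at 270.2, 389, 716 and 1242 CPM and did not reach 2-fold after laser at either age.

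Of the acute-phase genes and metallothioneins 7 of 11 were higher and 0 of 11 lower in aged mice, with a median log2 ratio of 1.82, and 6 of 10 without mixed columns. Serpina3n, an inhibitor of serine proteases, stood at 43.3, 55.4, 228 and 806 CPM. Both aged libraries lay above both young ones, and the laser ratio was 3.54 (3.15 to 3.99) in aged and 1.28 (1.12 to 1.47) in young mice. Lcn2, a lipocalin that binds bacterial siderophores, had 6, 167, 8 and 533 UMIs and a ratio of 15.3 (7.72 to 35.7) in aged mice. These counts are not scaled to the members' totals, so they do not give the order of its levels. Hp (haptoglobin) stood at 3.89, 24.4, 31.5 and 141 CPM and was higher after laser at both ages. The metallothioneins Mt1 and Mt2 did not reach 2-fold in any of the 4 comparisons.

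Some single genes had larger ratios than most of the lists. Igfbp2, a binding protein of insulin-like growth factors, stood at 201, 193, 9.23 and 209 CPM, 22.6 (12.9 to 43.9) times as high after laser in aged mice, and aged control alone was low. Columns in the top 1 in 20 by Igfbp2 UMIs held 90.8% of them in aged CNV. Mmp3, a matrix-degrading protease, stood at 175, 146, 240.1 and 1429 CPM, 5.95 (5.31 to 6.69) times as high, and was found in 28.7% of aged control and 60.2% of aged CNV members. Bhmt, an enzyme of methionine synthesis, had 0 and 141 UMIs, at least 10.8-fold higher against 3 UMIs. Asprv1, a protease of keratinised epithelium, had 0 and 212 UMIs, and without mixed columns no more than 3 in either library. The 5 ocular surface epithelium markers, 1 of them at 0, summed to 23.1 and 459 CPM in the aged libraries and to 23.6 and 39.4 without mixed columns.

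Among the genes lower after laser in aged mice, several were found in few members. Fmod, a collagen-binding proteoglycan, stood at 316, 181, 116 and 22.6 CPM and was found in 5.88% and 3.27% of aged members, and among members with at least 4 genes of set A its log2 ratio turned from -2.36 to 2.54. Thbs4, a thrombospondin of tendon, stood at 173, 215, 163 and 52.0 CPM, and its log2 ratio turned from -1.65 to 0.22. Tfpi, an inhibitor of coagulation, stood at 24.5, 26.4, 66.9 and 19.3 CPM, 3.47 (2.59 to 4.64) times lower, with aged control above the other 3 libraries.

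Without mixed columns the lists were also read in the other fibroblast types. Interferon-stimulated genes were higher after laser in aged mice in 15 of 21 in the Pgf type and 15 of 21 in the Myoc type, with median log2 ratios of 1.44 and 1.36 beside 1.15 in the members. Over all genes of those types 2.37% and 2.75% were higher. All 3 types thus had higher levels of the interferon list. For acute-phase genes and metallothioneins the medians were 0.56 and 0.46 beside 1.76 in the members, and for chemokines and cytokines 0.56 and 0.36 beside 0.97. These medians rest on different genes, with 7 and 9 measured beside 10 for the first list, and 17 and 16 beside 19 for the second. The differences between types were not tested.

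**Figure D3:**
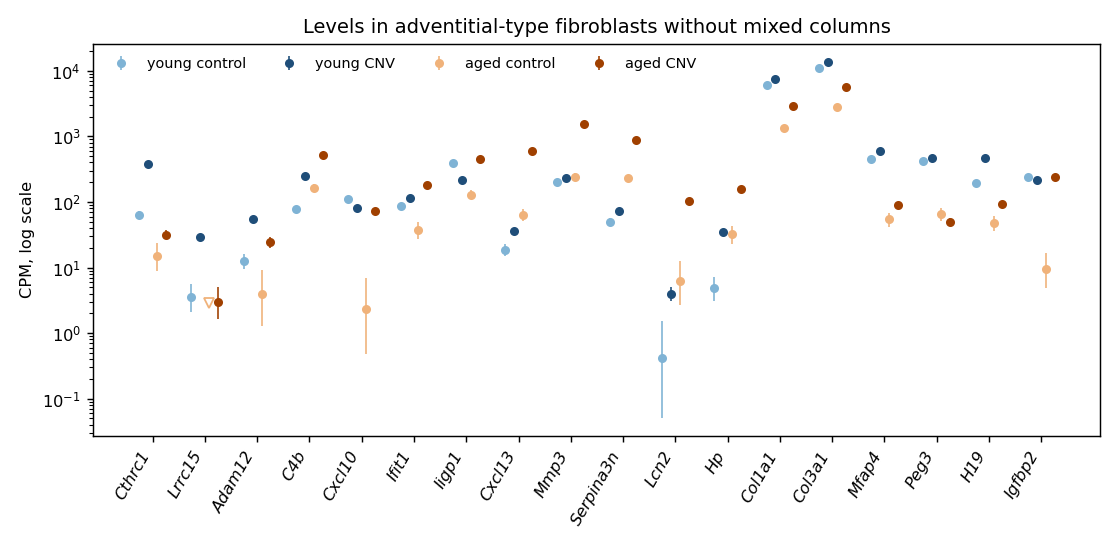
Level of 18 genes in members without mixed columns (vertical axis, CPM on a log scale), 1 point per library with its exact Poisson 95% interval, and an open triangle at the upper limit where no UMI was found. Cthrc1 and Adam12 are highest in young CNV, Serpina3n, Cxcl13, Mmp3, Lcn2 and Hp in aged CNV, and the 2 collagens, Mfap4, Peg3 and H19 are lower in both aged libraries.

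Without lesions, aged members held fewer collagen, growth and immediate early transcripts than young ones, and more of the complement genes C3 and C4b. Over all members 575 of 10805 genes were higher (5.32%) and 679 lower (6.28%), and without mixed columns 559 of 10125 (5.52%) and 452 (4.46%). The split depended on scaling. Trimmed mean scaling, which moved the median log2 ratio by -0.23, gave 320 higher and 1027 lower, and median-of-ratios scaling 344 and 949.

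Of the fibrillar and associated collagens 5 of 15 were lower and 0 of 15 higher, with a median log2 ratio of -0.78 against 0.13 over all genes. Col1a1, a chain of type I collagen, stood at 5497, 6478, 1376 and 2612 CPM, 3.996 (3.81 to 4.19) times lower in aged than in young control. Col3a1, type III collagen, stood at 9834, 10939, 2854 and 5116 CPM, and Col1a2 at 7993, 8531, 2189 and 2938. For all 3 both aged libraries lay below both young ones, although detection of these genes was part of the rule. Col14a1, a collagen on the surface of fibrils, stood at 832, 796, 1258 and 898 CPM and was not lower. Without mixed columns 5 of 15 collagens were lower in the members, 0 of 15 in the Pgf type and 3 of 15 in the Myoc type. Over all genes 4.46%, 4.68% and 4.46% were lower, in the same order. The difference from the members was not tested.

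Of the elastic fibre and microfibril genes 4 of 16 were lower and 1 of 16 higher, and of the matricellular genes 7 of 16 and 2 of 16. Mfap4, which binds elastin and collagen, stood at 404, 452, 53.1 and 82.4 CPM, 7.62 (6.00 to 9.83) times lower. Eln (elastin) stood at 476, 509, 172 and 275 CPM, lower in both aged libraries. Fbn1 (fibrillin) did not follow, at 1401, 1319, 2077 and 1267 CPM. Sparc, a collagen-binding matricellular protein, stood at 6896, 7668, 2150.5 and 2274 CPM, 3.21 (3.09 to 3.33) times lower.

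Of the IGF axis and imprinted growth genes 7 of 13 were lower and 0 of 13 higher, with a median log2 ratio of -1.19. Igf2, a fetal growth factor, stood at 46.3, 50.99, 6.92 and 12.2 CPM, 6.69 (3.47 to 14.8) times lower in aged control. Peg3, an imprinted zinc finger gene, stood at 385, 357, 64.6 and 48.7 CPM, and the imprinted noncoding RNA Meg3 at 694, 691, 179 and 157. For these 3 and H19 both aged libraries lay below both young ones. Igf1 stood at 707, 771, 309 and 506 CPM, and its receptor Igf1r did not reach 2-fold in any comparison. Without mixed columns 7 of 13 of this list were lower in the members, 4 of 13 in the Pgf type and 9 of 14 in the Myoc type. Over all genes 4.46%, 4.68% and 4.46% were lower, in the same order.

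Of the complement genes 4 of 12 were higher and 0 of 12 lower. Without mixed columns 3 of 11 were higher, with a median log2 ratio of 0.70, beside 6 of 11 in the Pgf type and 6 of 11 in the Myoc type, with medians of 1.10 and 1.20. Over all genes 5.52% were higher in the members, 6.75% in the Pgf type and 6.35% in the Myoc type. C3, the central component, stood at 409, 649, 1113 and 1970.2 CPM, 2.72 (2.55 to 2.91) times as high in aged control, with both aged libraries above both young ones. Other genes followed that order. Sntg1, a syntrophin, stood at 19.1, 18.0, 242 and 474 CPM, and Galnt15, a glycosyltransferase, at 9.63, 10.2, 67.7 and 183. Lars2, the mitochondrial leucyl-tRNA synthetase, stood at 104, 114, 1064 and 690.0 CPM and was found in 60.1%, 69.6%, 91.2% and 93.5% of members.

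Of the immediate early and heat shock genes 13 of 20 were lower and 0 of 20 higher, and 10 of 20 lower without mixed columns. Zfp36, which destabilises inflammatory messages, stood at 712, 548, 114 and 239 CPM and Fos at 3302, 2052, 1437 and 1395, while Egr1, at 1476, 998, 1392 and 1693, was not lower. Such genes are known to respond to dissociation, and age cannot be told apart from the handling of single preparations. Without mixed columns 14 of 20 were lower in the Pgf type and 8 of 20 in the Myoc type, beside 4.68% and 4.46% of all genes. Krt12, a keratin of cornea, led the lower genes with 3664 UMIs in young control and 0 in aged control, at 4.39 CPM in young control without mixed columns. The ocular surface epithelium markers summed to 3136 and 23.1 CPM in young and aged control, and to 51.5 and 23.6 without mixed columns, with 1 of 5 at 0 in aged control.

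After laser, aged members differed from young ones in the same matrix and growth lists and in the inflammatory ones. Over all members 1450 of 14489 genes were higher (10.0%) and 1372 lower (9.47%), and without mixed columns 1272 of 12603 (10.1%) and 684 (5.43%). Trimmed mean scaling gave 986 higher and 1957 lower, and median-of-ratios scaling 1071 and 1760. The comparison shares 1 library with each laser comparison, so it is no separate view of them.

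Of the fibrillar and associated collagens 11 of 15 were lower and 0 of 15 higher, with a median log2 ratio of -1.26 against 0.11 over all genes, and of the matricellular genes 10 of 16 were lower. Of the activated fibroblast genes 9 of 15 were lower and 1 of 15 higher, and without mixed columns 8 of 14 and 2 of 14. Cthrc1 was 11.8 (10.0 to 14.0) times lower and Lrrc15 9.75 (5.75 to 18.0) times lower, both without mixed columns. Runx1, a transcription factor of that list, was 2.15 (1.98 to 2.34) times as high instead. Without mixed columns 12 of 15 collagens were lower in the members, 0 of 15 in the Pgf type and 3 of 15 in the Myoc type. Over all genes 5.43%, 5.13% and 4.19% were lower, in the same order. The differences from the members were not tested.

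Of the interferon-stimulated genes 9 of 22 were higher, 10 of 22 without mixed columns and 4 of 22 under trimmed mean scaling. Of the complement genes 8 of 13 were higher, 4 of 12 without mixed columns, and of the acute-phase genes and metallothioneins 5 of 11. Without mixed columns 2 of 22 interferon-stimulated genes were higher in the Pgf type and 12 of 21 in the Myoc type. For complement genes these were 4 of 11 and 6 of 12, and for the acute-phase list 2 of 6 and 4 of 9. Over all genes of those types 7.15% and 8.23% were higher. The differences from the members were not tested. In the members Serpina3n was 14.6 (13.8 to 15.4) times as high, Cxcl13 21.9 (20.2 to 23.9) times and Mmp3 9.81 (9.45 to 10.2) times. Reads of Serpina3n may be shared with near-identical Serpina3 genes. Fgf23, a phosphate-regulating hormone, had 12 and 132 UMIs, a ratio of 58.9 (32.6 to 117), and was found in 4.18% of aged CNV members. Cxcl12 was 3.19 (3.097 to 3.29) times as high. Cxcl10 gave 0.979 (0.874 to 1.09). Vegfa, which drives vessel growth, stood at 58.5, 53.3, 60.01 and 61.7 CPM, and none of its 4 ratios reached 2-fold.

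**Figure D4:**
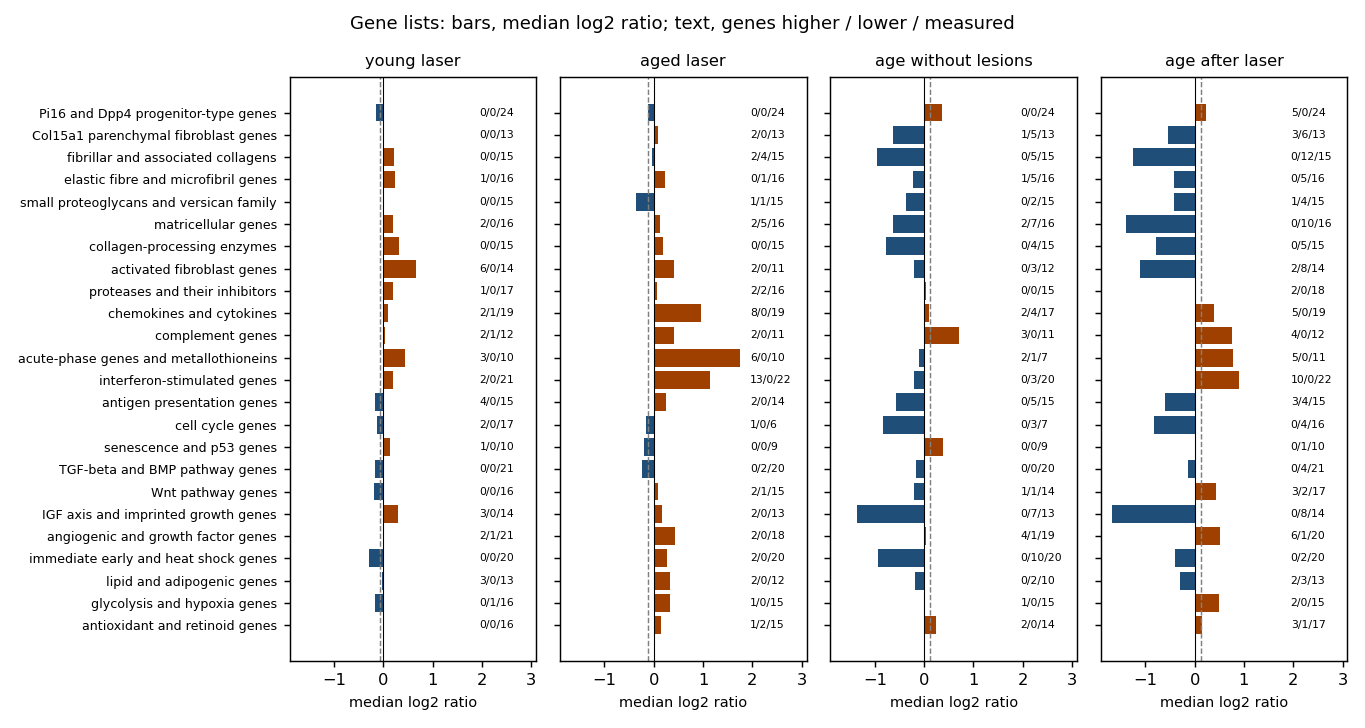
Median log2 ratio of the measured genes of each list (horizontal axis) in the 4 comparisons, for members without mixed columns, with the median over all genes as a dashed line and the number of genes higher, lower and measured beside each bar. After laser in aged mice the interferon-stimulated genes reach 1.15, and in aged against young mice without lesions the collagens lie at -0.96.

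The young and aged laser comparisons share no library and can be set side by side. Without mixed columns 10160 genes were measured in both, of which 35 were higher in both and 42 lower in both. Another 38 were higher in young mice only, 355 in aged mice only, 184 were lower in young mice only and 184 in aged mice only. A gene past 2-fold at 1 age is not shown to differ between ages, since no interaction could be tested. C4b was 3.18 (2.86 to 3.55) times as high in young and 3.18 (2.76 to 3.68) times in aged mice. Ccl8 gave 4.76 (3.52 to 6.59) and 4.39 (2.69 to 7.64), Adam12 4.33 (3.33 to 5.72) and 6.14 (2.56 to 19.3), and Hp 7.18 (4.74 to 11.4) and 4.86 (3.54 to 6.83), so these 4 genes were higher at both ages.

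Genes past 2-fold in opposite directions at the 2 ages numbered 11 in all members and 13 without mixed columns. At each age they had to be no lower in the members than in columns with fewer than 3 fibroblast genes, but in the higher library alone, so a gene could pass through the libraries where it is high. Col6a5, a collagen VI chain, stood at 11.7, 41.0, 118 and 41.2 CPM, so the CNV libraries lay together with young control below and aged control above them. Nts, at 18.4, 39.9, 77.7 and 22.6 CPM, and Foxd1, a transcription factor of stromal cells, at 2.53, 5.35, 24.6 and 6.72, were also highest in aged control and lowest in young control. Tnc was 2.97 (1.97 to 4.44) times lower after laser in aged mice, against 59.5 times as high in young mice, and was found in 5.15% and 3.45% of aged members. The 43 UMIs of aged control came from 7 members, 1 of which held 44.2% of them, and the interval takes UMIs as independent. In young control and aged CNV its level in the members was below that of columns with fewer than 3 fibroblast genes, at 3.04 against 9.70 and 11.1 against 14.9 CPM.

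**Figure D5:**
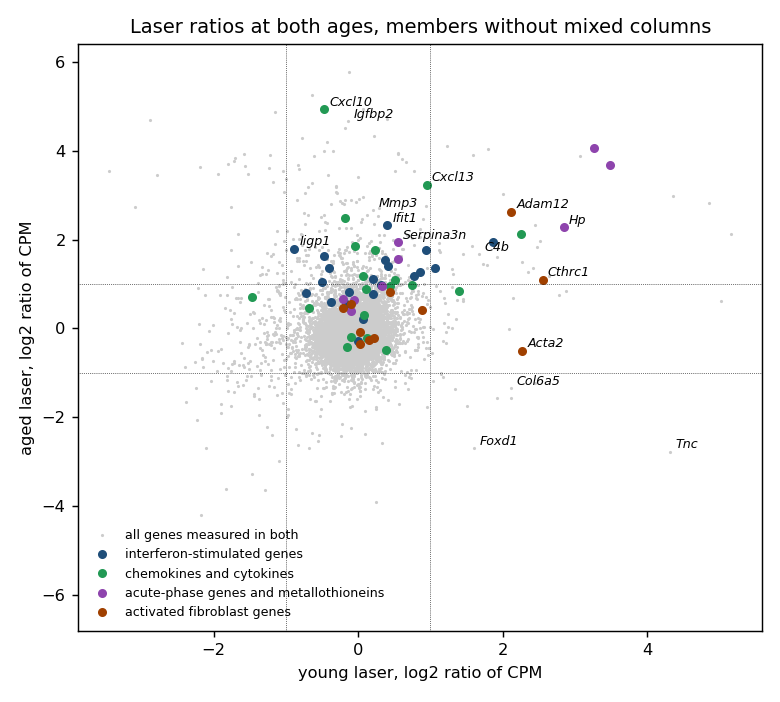
Log2 ratio of CPM after laser in young mice (horizontal axis) and aged mice (vertical axis) for the 10160 genes measured in both, members without mixed columns, with gene lists coloured and dotted lines at 2-fold. Ifit1 lies above the upper line at a young log2 ratio of 0.40, while Cthrc1 and Adam12 lie beyond the lines on both axes.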

How the data were processed

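Retina with choroid of 4 groups of mice was profiled with 10x Genomics droplets, 1 library per group. The authors deposited 1 matrix of raw counts, UMIs per gene and column, of 24783 genes and 36701 columns. Cell Ranger, Seurat 4.1.1 and build mm10 are named per the submitters' processing notes. For the Cell Ranger version and the annotation, nothing is given in the sources used here. Column names begin with yCon, yCNV, eCon or eCNV, and e was read as aged, since the other letter matches the young titles.

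Members were found by the rule in the report. The members and the gene lists were chosen with earlier results of these data known. UMIs were summed over members per library, so that 1 library gave 1 value, at the depths given in the report. CPM had exact Poisson intervals, ratios exact conditional binomial intervals, shares Clopper-Pearson intervals and odds ratios exact conditional ones, all at 95%. Genes with fewer than 50 UMIs over both libraries were left out. A fold against 0 UMIs was taken against 3 UMIs as a bound, and none was given where both libraries had 3 or fewer. No doublets were removed, and Scrublet scores of 0.2 or more were an alternative. Named were the genes of the rule, the 10 genes per side with the largest ratio by the bound nearest 0 in each comparison, whose CPM in the higher library alone was at least that of its columns with fewer than 3 fibroblast genes, the 20 highest and 10 lowest against the other fibroblasts, members of the gene lists, and genes opposed between ages. Mitochondrial, ribosomal, haemoglobin, immunoglobulin, sex-linked and unnamed genes were left out of these ranks, and some genes that the rule names are not reported here. Shares and ranks without mixed columns, and ratios without mixed columns in thinned data, were added after seeing the data. The other alternatives were thinning, stricter membership, other scaling and other UMI minimums. The interval code was tested on simulated data. Scrublet ran in scanpy 1.11.5 and scaling factors came from edgeR 4.0.16 in R 4.3.3. Intervals came from scipy 1.17.1, tables from pandas 2.3.3 with numpy 2.4.6, and figures from matplotlib 3.10.9, in Python 3.11.15.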

Additional observations from a re-analysis of the deposited data

Results flagged for a closer look

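Laser ratios at both ages were set side by side for genes past 2-fold in opposite directions. At each age, the gene's level in members of the higher library had to reach that of its columns with fewer than 3 fibroblast genes. The gene classes left out of the other ranks were left out here too. Of 11 such genes over all members and 13 without mixed columns, the 10 furthest past 2-fold are given. Opposed genes outside these limits are not listed, such as Kcnb2 at -1.525 and 3.485 without mixed columns. With 1 library per group the difference between ages was not tested. Each pair of values gives the log2 ratio after laser in young mice and then in aged mice.

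Over all members, genes higher in young mice and lower in aged mice were Tnc 5.90 and -1.57, Col6a5 1.82 and -1.52, Ltbp2 1.59 and -1.26, Nts 1.11 and -1.78, Foxd1 1.08 and -1.87 and Chil1 1.06 and -1.10. Those lower in young mice and higher in aged mice were Bhmt -1.19 and a lower bound of 3.43, Mrgprg -1.93 and 1.13, Ccn5 -1.05 and 1.37 and Adcyap1r1 -1.03 and 1.42, the bound being against 3 UMIs.

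Without mixed columns, genes higher in young mice and lower in aged mice were Tnc 4.32 and -2.77, Foxd1 1.61 and -2.70, Nts 2.12 and -1.56, Olfr1033 1.51 and -1.74, Chil1 1.35 and -1.36, Col6a5 2.12 and -1.35 and Mgat4c 1.03 and -1.18. Those lower in young mice and higher in aged mice were Irx6 -1.36 and 1.21, Mcoln2 -1.13 and 1.25 and Ifi47 -1.04 and 1.09. Tnc, Col6a5, Nts, Foxd1 and Chil1 appeared in both sets. Chil1 is a Myoc-type gene of the rule, so the choice of columns limited its level in the members. The aged laser value of Ltbp2 turned to 0.39 when columns were thinned to 2000 UMIs.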

How the results depend on the processing

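No paired analysis was possible because each group had 1 library, so no replicate could be left out either. The odds ratios of members among all columns kept their direction under every alternative run on them. Thinned to 2000 UMIs they were 2.81 for young laser, 0.278 for age without lesions and 0.351 for age after laser, thinned to 1000 UMIs 3.61, 0.319 and 0.330, and without rod columns 3.61, 0.338 and 0.333. With mixed columns not counted as members, but kept among all columns, they were 3.49 for young laser and 0.539 for age after laser.

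The counts of genes past 2-fold, higher and then lower, followed the settings. Thinned to 2000 UMIs, which leaves fewer genes with 50 UMIs, they were 248 and 200 for young laser, 227 and 100 for aged laser, 188 and 267 for age without lesions and 614 and 681 for age after laser. Without mixed columns and thinned they were 108 and 123, 191 and 91, 183 and 232, and 566 and 487. Without mixed columns alone the counts that moved by over 1.5 times were 191 higher for young laser, 452 lower for age without lesions and 684 lower for age after laser. With a minimum of 200 UMIs, which leaves fewer genes, they were 467 and 189, 234 and 64, 215 and 311, and 795 and 895. With a minimum of 20 UMIs the moved counts were 703 lower for young laser, 1188 and 463 for aged laser, and 941 and 1070 for age without lesions. Trimmed mean scaling gave 320 and 1027 for age without lesions, and median-of-ratios scaling 344 higher.

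Sizes moved more often than directions turned. Thinned to 2000 UMIs, 94 values moved, 3 turned and 62 stayed the same. Without mixed columns 63 moved, 1 turned and 93 stayed, and with both changes 76, 1 and 37. With at least 4 genes of set A, 58 moved, 6 turned and 97 stayed. Directions of single genes thus turned in few cases, and the cause was not tested. With at least 4 genes of set A, log2 ratios were 2.54 for Fmod, 0.22 for Thbs4 and 0.32 for Ltbp2 in aged laser, and 0.94 for Krt16, 0.85 for Spink5 and 0.73 for Sprr1a in young laser. Sprr1a was 0.61 without mixed columns and 0.58 thinned. Ltbp2 was 0.39 thinned and 0.23 thinned without mixed columns. Sp7, lower in the members than in other fibroblasts, was 0.55 thinned. Neither scaling turned the direction of a named gene among those reported.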
